A study of Mus musculus with 9 samples.

Results

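The immediate early genes of rat liver were read in a table of counts per gene, from which 10 of 19686 genes were taken by their gene symbol alone. These are Fos, Fosb, Jun, Junb, Egr1, Atf3, Ier2, Ier3, Btg2 and Myc, and each symbol matched 1 gene. Immediate early genes are transcribed soon after a cell is stimulated, by factors that the cell already holds, and their RNAs are usually short-lived. FOS, FOSB, JUN and JUNB pair to form the AP-1 transcription factor, EGR1, ATF3 and MYC are transcription factors too, and IER2, IER3 and BTG2 act in transcription, cell survival and growth arrest. In liver the family is known to respond to growth factors, to loss of liver tissue, to stress and to the handling of an animal or a tissue.

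The study asked how Danggui-Shaoyao-San, a herbal formula abbreviated DSS, acts on the liver of male Wistar rats that drink fructose. The control group (3 rats) drank purified water and received saline by gavage, the model group (3 rats) drank 15% fructose and received saline, and the DSS group (3 rats) drank 15% fructose and received a 50% methanol extract of the formula at 1.8 g/kg. All 9 rats were gavaged over 8 weeks (the saline daily), fasted for 12 h and anaesthetised with chloral hydrate. The dissected livers were frozen in liquid nitrogen. The labels name the mouse as organism, but give a rat strain, and the identifiers of the table are rat ones, so rat was taken as the species. The age of the rats and the time from anaesthesia to freezing in each rat were not given in the sources used here, and the part of handling in the levels was not tested.

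Total counts per library ranged from 14345819 to 26837227. Levels are given in CPM, the counts of a gene relative to the normalized size of its library, and 1 count was worth between 0.0402 and 0.0665 CPM. Pairs of rats within a group differed by more than counting error, as the mean chi-square over genes was 18.2 to 65.9 depending on the pair, and a value near 1 is what counting error would give. The tissue matched its label, since all 9 hepatocyte markers had counts in every library and albumin (Alb) took 9.91% to 12.8% of the counts. Model replicate 1 stood apart from the other libraries. It had the most counts, 26837227, and lay at -59.3 on the second principal component (22.9% of the variance), where the other 8 libraries lay between -16.6 and 20.1. Fold changes of the immediate early genes that rest on the model group, and the medians of the gene lists, are therefore given with and without it. In bulk liver, fewer cells of a type and less RNA per cell cannot be told apart.

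Each comparison was fitted over all genes with edgeR's quasi-likelihood test and Benjamini-Hochberg adjustment (FDR), and the calls are the genes past both thresholds of the study's methods, a log2 fold change of 0.5 or more in either direction with an FDR up to 0.01. Fosb had too few counts for the filter on low counts, so 9 of the 10 genes were tested in each comparison. Both comparisons of the model group use the same 3 model libraries, both comparisons with the control group use the same 3 control libraries, and both comparisons of the DSS group use the same 3 DSS libraries.

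The first comparison was of fructose with water. By edgeR 0 of 9 were called, where 0.0801% of the 12486 genes tested were called, and DESeq2 called 1 of 9, Ier2, against 2.05% of all genes. At an unadjusted p under 0.05 there were 5 of 9, all higher in the model group (Fos, Junb, Egr1, Ier2 and Ier3), against 13.2% of all genes. Model and control rats did not overlap in 3 of 9, again all higher (Fos, Ier2 and Ier3), against 21.1% of all genes. The median log2 fold change of the 9 was 0.79, and that of all genes tested was -0.001. Without model replicate 1 the median was 0.73, 3 of 9 had an unadjusted p under 0.05 against 15.3% of all genes, and 3 of 9 did not overlap against 33.6%, so the share without overlap was then that of all genes.

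Between the DSS group and the model group, which differ by the extract, the median of the 9 was -0.62 and that of all genes tested 0.00078. By edgeR 0 of 9 were called, against 0.136% of 12502 genes, and DESeq2 called 1 of 9, Fos, against 1.18% of all genes. An unadjusted p under 0.05 was found for 3 of 9, all lower in the DSS group (Fos, Egr1 and Ier2), against 8.02% of all genes. The groups did not overlap in 2 of 9 (Fos and Ier2), against 13.9% of all genes. Without model replicate 1 the median was -0.46, 2 of 9 had an unadjusted p under 0.05 against 8.06% of all genes, and 2 of 9 did not overlap against 24%, a share near that of all genes.

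Between the DSS group and the control group, edgeR called 1 of 9, Junb, against 1.48% of 12633 genes, and DESeq2 called 2 of 9, Jun and Junb, against 6.08% of all genes. An unadjusted p under 0.05 was found for 4 of 9, with Jun, Junb and Ier3 higher and Fos lower in the DSS group, against 24.3% of all genes. The groups did not overlap in 3 of 9, with Jun and Junb higher and Fos lower, against 30% of all genes, so the family did not stand out in this share. The median of the 9 was 0.27 and that of all genes tested -0.008.

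**Figure D1:**
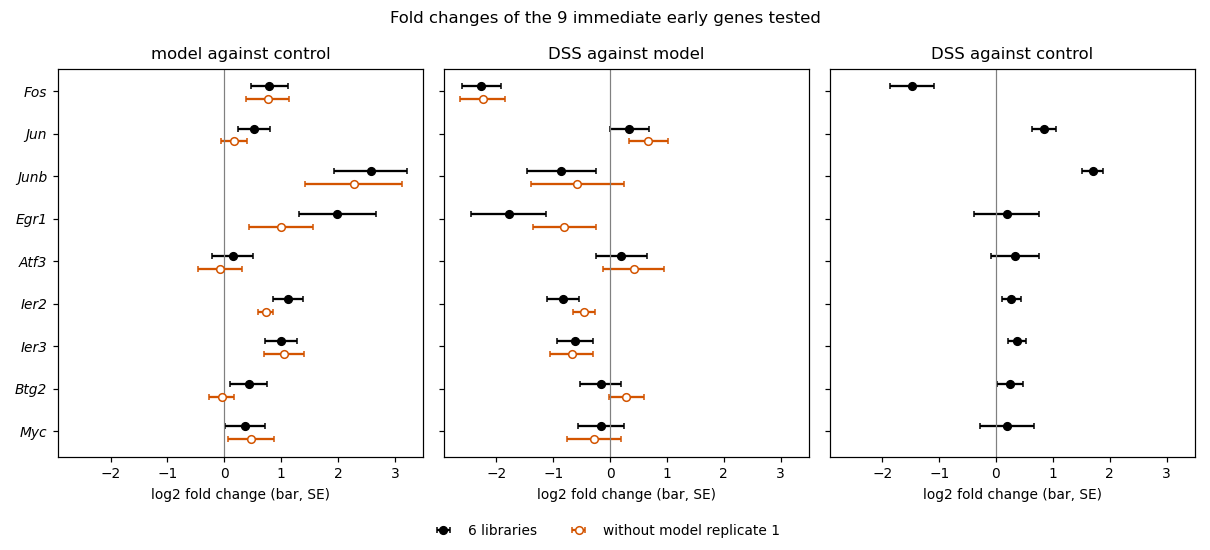
Log2 fold change with its standard error for the 9 genes tested in each comparison, filled for all 6 libraries and open without model replicate 1. Junb lay highest against the control group in both treated groups, at 2.57 in the model group and 1.70 in the DSS group, while Fos stood at 0.79 and -1.48.

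Fos (ENSRNOG00000008015) encodes the AP-1 subunit that pairs with a JUN protein and is among the quickest genes of the family to respond. It was at 1.20, 1.31 and 1.99 CPM in control replicates 1, 2 and 3, at 2.67, 3.02 and 2.09 CPM in model replicates 1, 2 and 3, and at 0.487, 0.431 and 0.676 CPM in DSS replicates 1, 2 and 3. Every DSS rat lay below every control rat, and every model rat above every control rat, but with library size alone as the scaling model replicate 3 (2.08 CPM) fell just below control replicate 3 (2.09 CPM). The counts behind these levels were low, between 8 and 62 per library. Mean levels were 1.50 ± 0.429 CPM (control), 2.59 ± 0.466 CPM (model) and 0.532 ± 0.128 CPM (DSS; SD, n = 3 each). Against control, the log2 fold change of the model group was 0.79 (SE 0.326, edgeR FDR 0.344), and without model replicate 1 it was 0.76. Against the model group, the DSS group was 4.80-fold lower, a log2 fold change of -2.26 (SE 0.343, edgeR FDR 0.0434), which missed the FDR threshold of 0.01, and without model replicate 1 it was -2.24. By DESeq2 this difference passed both thresholds (FDR 0.000215), and over all the alternatives tried its FDR ran from 0.000215 to 0.22. Against the control group the DSS group had a log2 fold change of -1.48 (SE 0.383, edgeR FDR 0.0499).

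Fosb (ENSRNOG00000046667), a second FOS subunit, was near the limit of detection. It had 6, 4 and 6 counts in the control rats, 5, 2 and 7 in the model rats and 2, 0 and 6 in the DSS rats. The groups overlapped, and a difference was not detectable at this depth.

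Jun (ENSRNOG00000026293) encodes the AP-1 subunit that also pairs with itself. Its levels were 67.3, 66.5 and 60.3 CPM in the control rats, 131, 93.3 and 53.7 CPM in the model rats, and 118, 79.0 and 153 CPM in the DSS rats. The control rats lay close together, the model rats spread to both sides of them, and all 3 DSS rats lay above all 3 control rats. The log2 fold change in the model group was 0.52 (SE 0.282, edgeR FDR 0.487), and without model replicate 1, the highest model rat, it was 0.17. In the DSS group against control it was 0.85 (SE 0.217, edgeR FDR 0.0584), so Jun was not called there. DESeq2 called it (FDR 0.00251), as did edgeR without DSS replicate 2, the lowest rat of its group (FDR 0.00646), and the FDR over the alternatives ran up to 0.164. Between the DSS and model groups the log2 fold change was 0.34 (SE 0.339, edgeR FDR 0.866), 0.67 without model replicate 1, 0.067 without model replicate 3 and 0.10 without DSS replicate 3.

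Junb (ENSRNOG00000042838), the JUN family subunit that can also restrain the activity of JUN, had the widest range within a group of the 9 tested genes. It was at 14.3, 19.0 and 14.4 CPM in the control rats, at 128, 138 and 18.2 CPM in the model rats, and at 57.8, 39.7 and 58.3 CPM in the DSS rats. Model replicates 1 and 2 were far above every other rat, model replicate 3 lay within the control range, and the 3 DSS rats lay between, all above the control rats. The highest model rat was 7.56-fold above the lowest, where this ratio was 1.33 in the control group and 1.47 in the DSS group. Junb rose in the DSS group from 15.9 ± 2.70 CPM to 51.9 ± 10.6 CPM (SD, n = 3 each), a log2 fold change of 1.70 against control (SE 0.183, edgeR FDR 0.00183). The call was lost without control replicate 1 (edgeR FDR 0.0123), with the replicate number as a block (edgeR FDR 0.0162) and with all 9 libraries in one edgeR fit (FDR 0.152), and DESeq2 gave an FDR of 5.43e-14. In the model group the mean was 94.7 ± 66.4 CPM and the log2 fold change 2.57 (SE 0.640, edgeR FDR 0.136), which was not called. Without model replicate 3 it was 3.06 and was called (edgeR FDR 0.00378), and without model replicate 1 it was 2.28 (edgeR FDR 0.326). The highest FDR over its alternatives, 0.446, came with no filter on low counts. Between the DSS and model groups, which overlapped, the log2 fold change was -0.86 (SE 0.603, edgeR FDR 0.815), and -0.58, -0.49 and -1.35 without model replicates 1, 2 and 3 in turn (edgeR FDR 0.942, 0.78 and 0.0818).

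**Figure D2:**
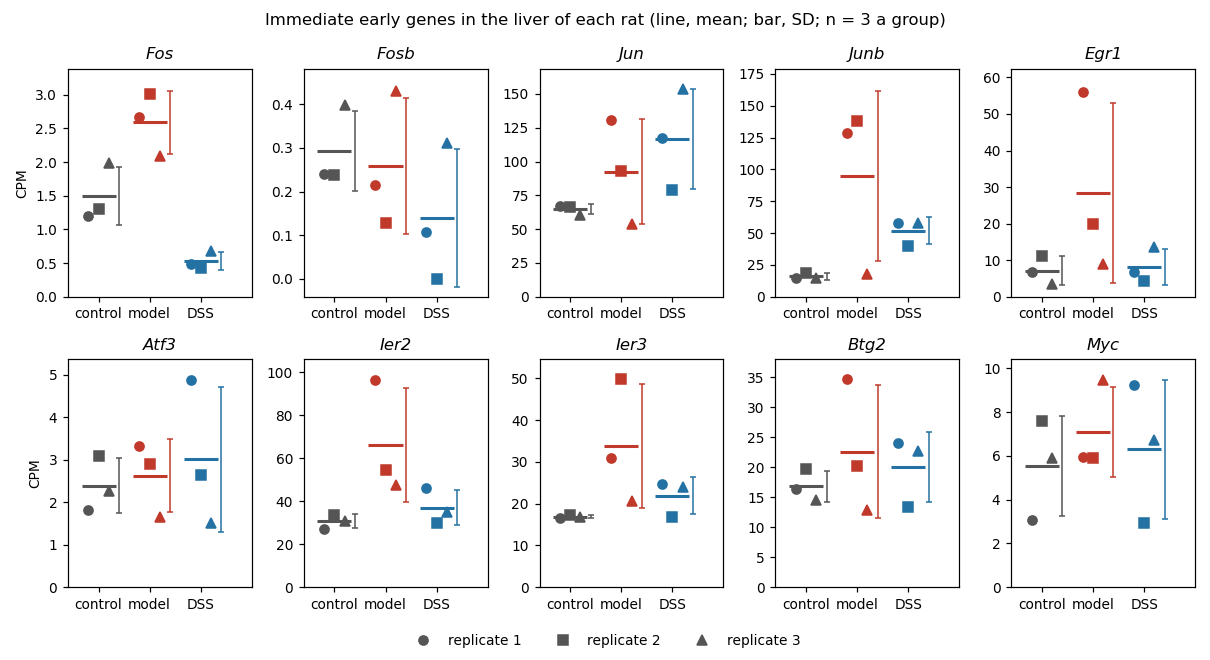
CPM of the 10 immediate early genes in each rat by group, with a line at the group mean, a bar for the SD beside it and a marker shape for the replicate number. In Fos the DSS rats lie below all others, whereas in Junb model replicate 3, at 18.2 CPM, lies with the control rats and the other 2 model rats are at 128 and 138 CPM.

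Egr1 (ENSRNOG00000019422) encodes a zinc finger transcription factor induced by growth factor signalling. Its levels were 6.87, 11.2 and 3.39 CPM in the control rats, 56.1, 20.0 and 8.99 CPM in the model rats, and 6.71, 4.26 and 13.7 CPM in the DSS rats. Model replicates 1 and 2 were above all control and DSS rats, and model replicate 3 lay inside both ranges. The log2 fold change in the model group was 1.99 (SE 0.672, edgeR FDR 0.265), and without model replicate 1 it was 0.99 (edgeR FDR 0.49). In the DSS group against the model group it was -1.79 (SE 0.664, edgeR FDR 0.549), and without model replicate 1 it was -0.81. Against control the DSS group differed by 0.19 on the log2 scale (SE 0.571), which became -0.38 without DSS replicate 3 and -0.13 without control replicate 3.

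Ier2 (ENSRNOG00000054344) encodes a nuclear protein that acts in transcription. It was at 27.3, 33.8 and 30.6 CPM in the control rats, at 96.5, 54.4 and 47.8 CPM in the model rats, and at 46.2, 29.9 and 35.0 CPM in the DSS rats. Every model rat lay above every control rat and every DSS rat, and the DSS rats overlapped the control rats. Mean levels were 30.6 ± 3.26 CPM (control), 66.2 ± 26.4 CPM (model) and 37.0 ± 8.33 CPM (DSS; SD, n = 3 each). The model group had a log2 fold change of 1.12 (SE 0.265, edgeR FDR 0.121), and without model replicate 1 it was 0.73 (edgeR FDR 0.0573). DESeq2 called Ier2 in this comparison (FDR 0.00454), and over the alternatives its FDR ran from 0.00454 to 0.363. The DSS group against the model group gave -0.83 (SE 0.285, edgeR FDR 0.486), and -0.46 without model replicate 1.

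Ier3 (ENSRNOG00000000827) encodes a protein that acts on cell survival. Its levels were 16.5, 17.2 and 16.7 CPM in the control rats, 31.0, 49.7 and 20.6 CPM in the model rats, and 24.7, 16.8 and 24.0 CPM in the DSS rats. The control rats were nearly alike, the model rats all lay above them, and DSS replicates 1 and 3 lay above the control range while DSS replicate 2 lay inside it. The model group was 2-fold above control (edgeR FDR 0.181), and its log2 fold change, with an SE of 0.283, became 1.05 without model replicate 1 and 0.61 without model replicate 2, the highest model rat. Between the DSS and model groups it was -0.62 (SE 0.309, edgeR FDR 0.694), which became -0.68 without model replicate 1 and -0.24 without model replicate 2, and in the DSS group against control it was 0.37 (SE 0.159, edgeR FDR 0.191).

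Atf3, Btg2 and Myc had no unadjusted p under 0.05 in any of the 3 comparisons, and their groups overlapped in each. Atf3 (ENSRNOG00000003745), a stress-responsive transcription factor of the ATF family, was at 1.81, 3.09 and 2.26 CPM in the control rats, at 3.31, 2.89 and 1.66 CPM in the model rats, and at 4.87, 2.64 and 1.51 CPM in the DSS rats. DSS replicate 1 was the highest of the 9 rats and DSS replicate 3 the lowest. Btg2 (ENSRNOG00000003300), which restrains cell division and is also a target of p53, was at 16.3, 19.7 and 14.6 CPM in the control rats, at 34.7, 20.1 and 12.9 CPM in the model rats, and at 24.0, 13.4 and 22.8 CPM in the DSS rats. Model replicate 1 was the highest and model replicate 3 the lowest of the 9 rats. Myc (ENSRNOG00000004500), the growth-promoting transcription factor, was at 3.09, 7.61 and 5.91 CPM in the control rats, at 5.94, 5.90 and 9.48 CPM in the model rats, and at 9.26, 2.91 and 6.71 CPM in the DSS rats. Of the 9 tested genes, Myc was the one highest in model replicate 3. In the model group the log2 fold changes of Atf3, Btg2 and Myc were 0.15, 0.43 and 0.36, and without model replicate 1 they were -0.079, -0.044 and 0.47. In the DSS group against the model group they were 0.20, -0.17 and -0.17, and without model replicate 1 they were 0.41, 0.29 and -0.29. In the DSS group against control they were 0.33, 0.25 and 0.19.

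Rats of 1 group differed from each other across the genes. Model replicate 3 was the lowest of the 3 model rats in 8 of the 10 genes, where it was the lowest in 28.7% of all 12897 genes with enough counts over the 9 libraries. DSS replicate 2 was the lowest of its group in 9 of the 10 genes, against 31.9% of all genes. Control replicate 2 was the highest of its group in 7 of the 10, against 33.4% of all genes. Model replicates 1 and 2 each had the highest level of the 9 rats in 3 of the 10 genes, against 20.8% and 10.9% of all genes. Model replicate 3 had it in 2 of the 10, Fosb and Myc, against 8.44% of all genes. The genes are not replicates of a rat, so these counts are a description with no test.

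**Figure D3:**
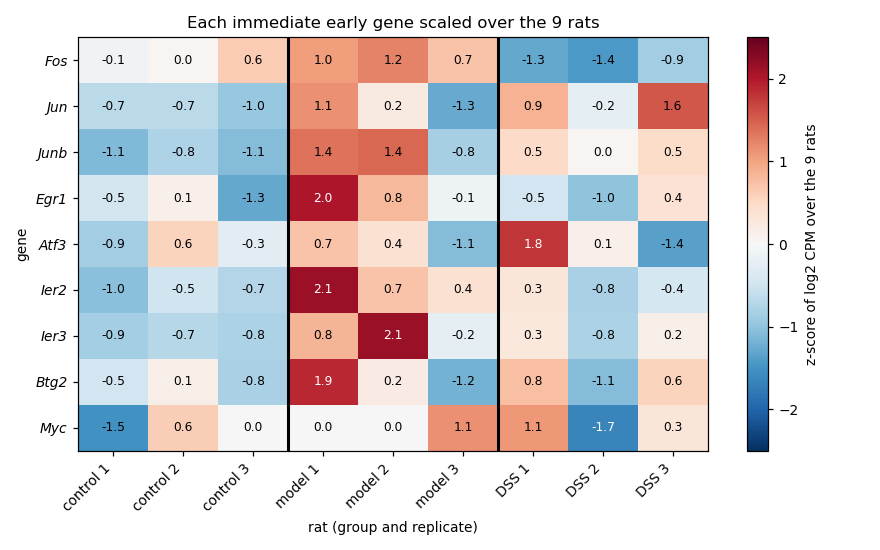
Log2 CPM of the 9 tested genes, each scaled to mean 0 and SD 1 over the 9 rats, with black lines between the groups. The mean of the 9 z-scores was highest in model replicate 1, at 1.24, and lowest in control replicate 1, at -0.785, and Fos is the gene that is low in all 3 DSS rats.

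The mean z-score over the 9 tested genes was -0.785, -0.13 and -0.588 in the control rats, 1.24, 0.797 and -0.278 in the model rats, and 0.42, -0.758 and 0.0812 in the DSS rats. Model replicates 1 and 2 lay above all others, DSS replicates 1 and 3 came next, and model replicate 3 and DSS replicate 2 lay among the control rats. The correlation of each gene with this mean ranged from 0.40 for Fos, 0.45 for Myc and 0.50 for Atf3 to 0.91 for Ier2, over 9 libraries. These values describe the libraries, which share depth and scaling across genes, and each gene is itself part of the mean. Among all other genes, the patterns nearest to the mean were those of Slc22a18 (Pearson r 0.958), Prorsd1 (0.952), LOC102549173 (0.948), Lrrc28 (0.946) and Ift74 (0.932), also over 9 libraries. Slc22a18, for instance, was at 192, 168 and 156 CPM in the model rats, with model replicate 1 the highest and model replicate 3 the lowest of them, as for Ier2.

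The spread between rats of a group was above that of the median gene for all 9. As a biological coefficient of variation, which is the spread beyond counting error, the median over 12897 genes was 19.1%. Egr1 was at 55.8% and Junb at 47.4%, higher than 98.2% and 96.3% of all genes. Next came Myc at 36.7% and Atf3 at 35.9%, and Btg2, Jun, Ier3, Fos and Ier2 lay between 23.0% and 29.2%. All 9 stayed above the median with either other scaling, and leaving out 1 rat left between 7 and 9 above it, with 7 without model replicate 3. Fos lay below the 33.6% fitted for genes of its level, while the other 8 lay above their fitted values.

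**Figure D4:**
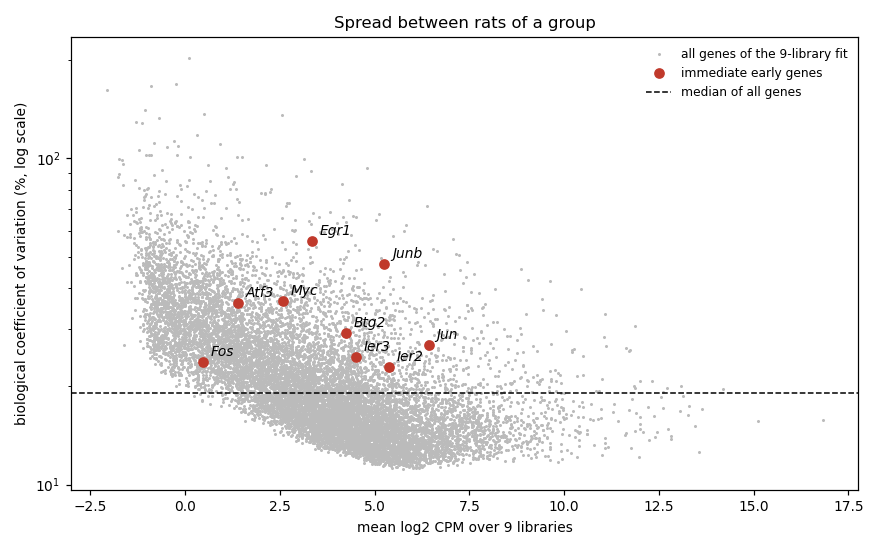
Biological coefficient of variation (log axis) against mean log2 CPM for the 12897 genes with enough counts over the 9 libraries, with the 9 immediate early genes in red and the median of all genes, 19.1%, as a dashed line. All 9 lie above the line, from 23.0% in Ier2 to 55.8% in Egr1.

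The family was set beside related genes, grouped by role. For the model group against control, the DSS group against model and the DSS group against control, in this order, 13.2%, 8.02% and 24.3% of all genes had an unadjusted p under 0.05, 21.1%, 13.9% and 30% did not overlap, and DESeq2 called 2.05%, 1.18% and 6.08%. Of 11 other AP-1 and related leucine zipper genes 8 were tested, and edgeR and DESeq2 called 0 in each comparison. An unadjusted p under 0.05 was found for 0, 0 and 1 in the same order, and for 1 in the first without model replicate 1. With 8 genes, these counts and those without overlap are too small to read against the shares of all genes. The groups did not overlap for 2 of 8 in the DSS group against control, where the share of all genes was 30%. Mafg, a small MAF protein, was higher in every DSS rat than in every control rat (log2 fold change 0.63), and Fosl2, a further FOS subunit, lower in every DSS rat (-0.59). Fosl2 had few counts, 19, 11 and 19 in the control rats and 12, 12 and 9 in the DSS rats. Control replicate 2 (0.654 CPM) and DSS replicate 1 (0.650 CPM) nearly touched. In this comparison 0 of the 8 genes were lower at an unadjusted p under 0.05. Among 17 tested of 25 other primary response factors 0 were called by edgeR, while 3, 3 and 7 had an unadjusted p under 0.05 in the same order, and DESeq2 called 0, 0 and 2. Their groups did not overlap for 1 higher and 3 lower genes, 0 and 3, and 2 and 2 in the same order. Against control, Ccn1, a matrix protein that cells release on stimulation, was higher in all 3 model rats (0.94) and in all 3 DSS rats (0.89), and Klf6 was higher in all 3 DSS rats (0.99). In all 3 model rats Ier5l (-0.85) and Ier5 (-0.37) were lower than in the control rats. Klf10 was at 53.6, 18.3 and 14.8 CPM in the model rats and at 10.6, 13.3 and 10.3 CPM in the DSS rats, which lay below all model and control rats (-1.34 against model, -0.53 without model replicate 1, and -0.74 against control). Ccn2 (-0.82) and Klf2 (-0.26) were also lower in every DSS rat than in every model rat.

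Feedback regulators, which shorten the response of immediate early genes, numbered 24, and 21 to 23 were tested. By edgeR 0 were called, with 5, 2 and 4 at an unadjusted p under 0.05 in the same order, and DESeq2 called 1, 0 and 0. The groups did not overlap for 4 higher and 1 lower genes, 2 and 0, and 4 and 1 in the same order. The shares of all genes without overlap were 21.1%, 13.9% and 30%. Gadd45g, a stress-induced growth arrest gene, was at 7.79, 13.7 and 13.6 CPM in the control rats, 35.6, 48.8 and 21.1 CPM in the model rats and 60.4, 9.71 and 13.6 CPM in the DSS rats (log2 fold change 1.59 in the model group). All 3 model rats lay above the control rats. DSS replicate 1 lay above all model rats, and DSS replicates 2 and 3 lay inside the control range. Btg1, a relative of Btg2 (0.92, and 0.65 without model replicate 1), and Nfkbia, the inhibitor of NF-kappa B (0.51), were also higher in every model rat. Errfi1, a brake on the EGF receptor, was higher in every DSS rat than in every model (0.39) and control rat (0.64), as was Spred2, an inhibitor of the RAS pathway (0.96, or 0.62 without model replicate 1, and 0.52). Sik1 was lower in every DSS rat than in every control rat (-0.57), and so it was in every model rat. It was at 26.1, 29.2 and 34.4 CPM in the control rats, 25.0, 20.8 and 19.6 CPM in the model rats and 21.2, 17.2 and 22.1 CPM in the DSS rats. Of 20 kinases and factors upstream of the family 19 were tested and 0 called by edgeR, and DESeq2 called 0, 0 and 1. An unadjusted p under 0.05 was found for 2, 1 and 4, near the shares of all genes. Without model replicate 1 the first count was 3, all higher in the model group, against 15.3% of all genes. The groups did not overlap for 1 higher and 0 lower genes, 0 and 1, and 5 and 1 in the same order. Mapk3, which encodes ERK1, was higher in every model (0.46) and DSS rat (0.50) than in every control rat. Elk1 (0.34) and Crtc2 (0.25) were higher in every DSS rat than in every control rat, and Rps6ka1 was lower in every DSS rat than in every model rat (-0.20).

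Myc was read beside its partners and the growth genes known to respond to it. Of 10 MYC network genes 8 were tested and 0 called by edgeR, with 3, 1 and 3 at an unadjusted p under 0.05 in the same order, and DESeq2 called 0, 1 and 0. Their groups did not overlap for 2 higher and 1 lower genes, 0 and 1, and 1 and 2 in the same order. Mycl, a paralog of Myc, was at 1.04, 1.25 and 1.06 CPM in the control rats, 2.19, 3.08 and 4.19 CPM in the model rats and 0.487, 0.701 and 0.364 CPM in the DSS rats. Its 3 groups formed separate ranges with the model group highest and the DSS group lowest. Its log2 fold changes were 1.48 in the model group, -2.58 in the DSS group against model (SE 0.403, edgeR FDR 0.0475) and -1.11 in the DSS group against control, and without model replicate 1 the first 2 were 1.68 and -2.79. Mlx was lower in every model (-0.39) and DSS rat (-0.50) than in every control rat, Mxi1 was higher in every model rat (0.32), and Mxd1 was higher in every DSS rat (0.73). The 12 nucleolar and growth genes that respond to MYC had medians of -0.42 in the model group and -0.38 in the DSS group against control (log2 fold change). By edgeR 0 of the 12 were called, and DESeq2 called 1, 0 and 4 in the same order. An unadjusted p under 0.05 was found for 6 in the model group against control, all lower, for 0 in the DSS group against model and for 8 in the DSS group against control, 7 of them lower. The shares of all genes were 13.2%, 8.02% and 24.3%. The groups did not overlap for 0 higher and 7 lower genes, 0 and 0, and 1 and 7, against 21.1%, 13.9% and 30% of all genes. The 1 higher gene was Npm1, at 102, 111 and 95.0 CPM in the control rats, 157, 107 and 127 CPM in the model rats and 137, 121 and 131 CPM in the DSS rats. Nop58 (-0.88 and -0.82), Nop56 (-0.62 and -0.82), which build ribonucleoproteins of the nucleolus, were lower in every model and DSS rat than in every control rat, as was Odc1, the first enzyme of polyamine synthesis (-0.80 in the DSS group), and Rrs1 was lower in every model rat (-0.80). Without model replicate 1 the median in the model group was -0.46.

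Heat shock and hypoxia-responsive genes, which respond to other acute stimuli, were read for the same reason. Of 8 heat shock genes 7 were tested against control, with medians of -0.67 (model, and -0.82 without model replicate 1) and -1.41 (DSS) on the log2 scale, the opposite sign to the median of the immediate early genes. Hsph1, a chaperone, was at 176, 140 and 129 CPM in the control rats, 81.3, 89.5 and 57.5 CPM in the model rats and 43.2, 65.5 and 59.3 CPM in the DSS rats, so every control rat was above every other rat. It fell by 1.41 on the log2 scale in the DSS group (SE 0.174, edgeR FDR 0.00313), and Hsp90aa1 fell by 1.71 (SE 0.252, edgeR FDR 0.00631). In the model group 0 of 7 were called by edgeR and 4 of 7 had an unadjusted p under 0.05, all lower, against 13.2% of all genes, and DESeq2 called 2 of 7, against 2.05%; among the 4 were Hspb1 (-1.30), Hsp90aa1 (-1.13) and Hsph1 (-0.97). Against control, edgeR called 2 of 7 in the DSS group, 7 of 7 were lower at an unadjusted p under 0.05, against 24.3% of all genes, and DESeq2 called 4 of 7, against 6.08%. Between the DSS and model groups edgeR and DESeq2 called 0 of 6, and 0 had an unadjusted p under 0.05. Of 11 hypoxia-responsive genes 10 were tested, with medians of -0.11 in the model group (-0.17 without model replicate 1) and -0.05 in the DSS group against control. By edgeR 0 were called in the model group against control and in the DSS group against model. There 2 and 2 of 10 had an unadjusted p under 0.05, against 13.2% and 8.02% of all genes. DESeq2 called 0 and 1, against 2.05% and 1.18%. Of the 10, edgeR called 1 in the DSS group against control, against 1.48% of all genes. An unadjusted p under 0.05 was found for 4, against 24.3%, and DESeq2 called 2, against 6.08%. The groups did not overlap for 0 higher and 3 lower genes (model against control), 1 and 1 (DSS against model), and 1 and 3 (DSS against control). The shares of all genes without overlap were 21.1%, 13.9% and 30%. Pdk1, a kinase that restrains pyruvate oxidation, fell by 1.11 on the log2 scale in the DSS group (edgeR FDR 0.000467), at 34.6 ± 0.617 CPM against 74.7 ± 3.58 CPM in control rats (SD, n = 3 each), and every DSS rat was also below every model rat (-0.77). In the model group Egln3 (-1.19), P4ha1 (-0.50) and Pdk1 (-0.34) were lower in every rat than in the control group, and Slc2a1 was higher in every DSS rat than in every model rat (0.83). Leaving out model replicate 1 kept the sign of 28 of 28 fold changes given here for listed genes in the comparisons with the model group. These genes were named because their groups did not overlap, so leaving out 1 rat could hardly turn a sign. The 28 of 28 therefore does not test how far the listed genes depend on that rat. Klf10 moved the most.

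**Figure D5:**
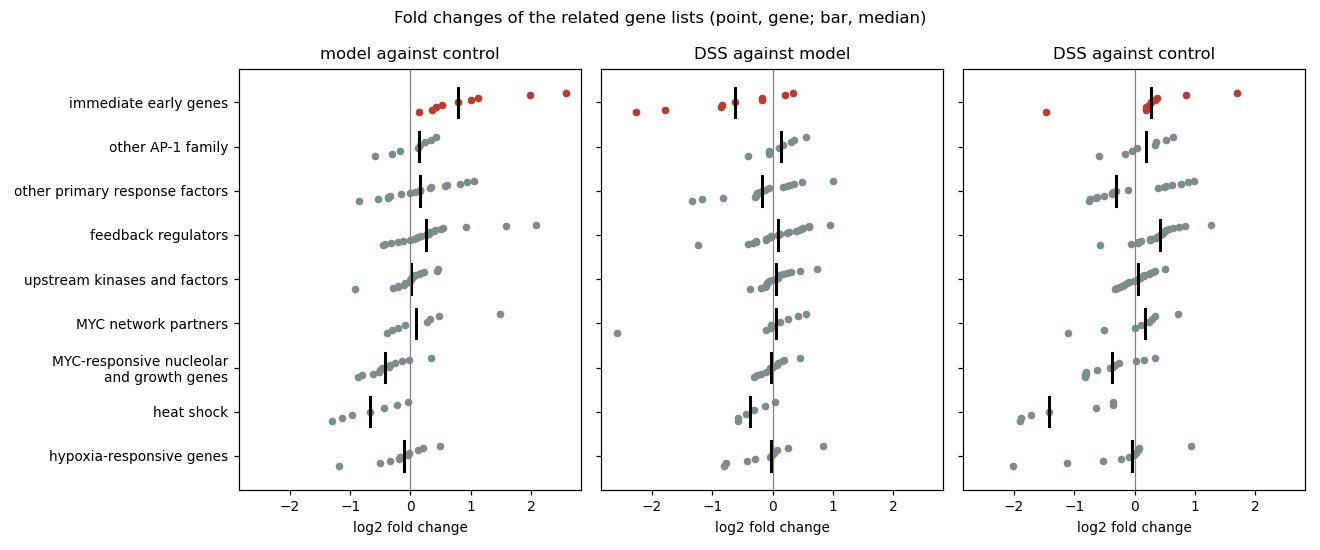
Log2 fold change of each tested gene by list and comparison, with a bar at the median. The immediate early genes have medians of 0.79, -0.62 and 0.27, and the heat shock genes, all left of 0 against control and all but Hspa8 in the DSS group against model, have medians of -0.67, -0.37 (-0.27 without model replicate 1) and -1.41.

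Markers of the cells that liver RNA can hold were set beside the rats, since immediate early genes can be induced in many cell types. The summed level of 10 of 12 Kupffer cell and leukocyte markers (Clec4f the most abundant) was 702, 311 and 436 CPM in the control rats, 332, 518 and 226 CPM in the model rats, and 374, 312 and 425 CPM in the DSS rats. That of 8 of 9 endothelial markers (Eng the most abundant) was 319, 221 and 259 CPM, 178, 381 and 164 CPM, and 312, 241 and 226 CPM in the same order. Both sums were lowest of the 9 in model replicate 3, and model replicate 2 had the highest endothelial sum, so model replicates 1 and 2 differed in both, and model replicate 1 was below the control range for endothelial cells. For 7 of 8 neutrophil markers (Lcn2 the most abundant, with 0 to 2 markers at 0 in a library) the sums were 6.63, 3.03 and 5.45 CPM, 10.5, 8.09 and 5.73 CPM, and 4.33, 6.31 and 6.87 CPM, highest in model replicates 1 and 2. In model replicate 1 Lcn2 alone gave 7.61 of the 10.5 CPM, so this sum rests mostly on 1 marker, while in model replicate 2 Lcn2 gave 2.89 CPM. The sums of 5 proliferation markers (Mki67 the most abundant) were 7.83, 4.10 and 5.78 CPM, 7.27, 14.2 and 8.80 CPM, and 2.38, 3.34 and 5.67 CPM, highest in model replicate 2, and every DSS rat was below every model rat, as in Fos. Between these groups the median log2 fold change of the 5 was -1.69, and -1.77 without model replicate 1. An unadjusted p under 0.05 was found for 4 of 5, all lower, against 8.02% of all genes, and edgeR and DESeq2 called 0. These markers were near the limit of detection: Mki67 was at 0.217 CPM in DSS replicate 1, where 1 count was worth 0.0542 CPM. The 10 stellate cell and fibroblast markers (Col3a1 the most abundant) summed to between 216 and 378 CPM, the 7 of 8 red blood cell markers (Hba-a1) to between 362 and 1195 CPM, the 6 bile duct markers (Epcam, 0 to 2 markers at 0) to between 15.6 and 34.0 CPM, and the 4 of 7 markers of pancreas and intestine (Cela1, 0 to 2 at 0) to between 14.1 and 29.4 CPM, with model replicate 1 the highest for the last 2 lists. The 9 hepatocyte markers (Alb) summed to between 144728 and 232439 CPM, lowest in control replicate 1 and highest in model replicate 1. The part of these cell types in the levels of the immediate early genes was not tested.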

How the data were processed

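Liver RNA of 9 rats was sequenced, and the labels' titles put 3 in each of the control, model and DSS groups. The authors aligned the reads with HISAT2 and counted them per gene on exons with HTSeq 0.6.1 (mode intersection-nonempty), and deposited raw counts without normalization. The submitters' processing notes name Rnor_6.0. Strand was ignored, so reads of a gene and of an overlapping antisense gene cannot be told apart. The table gives symbols but no positions. A table of assembled transcripts, with 9 columns of per-sample values, was not used.

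Each comparison was fitted on its 6 libraries with edgeR 4.0.16 in R 4.3.3 (filterByExpr, TMM, robust glmQLFit, two-sided glmQLFTest); SE is the fold change divided by the square root of F. CPM used TMM factors over all 9 libraries. Principal components, z-scores and correlations used log2 CPM with a prior count of 2. The spread is the tagwise dispersion of a fit on 9 libraries. Alternatives were DESeq2 1.42.0 without independent filtering, RLE size factors, library size alone, no filter, at least 10 counts in every library, the replicate number as a block, a single fit of all 9 libraries, an FDR of 0.05 and each rat left out. Those for the counts of genes that did not overlap, for the spread and for the gene and marker lists without model replicate 1 were added after seeing the data. The fits were tested on simulated data.

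Named are all 10 members; from each list the genes called, otherwise up to 3 per comparison with the largest fold change among those whose groups did not overlap; and the 5 genes nearest in pattern. Npm1 was named outside this rule, as the growth gene that was higher in every DSS rat than in every control rat. Listed genes not matched by symbol were not analysed here. The members and lists were chosen with earlier results of these data known. With 3 rats a group, the lowest p an exact permutation test allows is 0.1, and none was run.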

Additional observations from a re-analysis of the deposited data

How the results depend on the processing

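The edgeR call of the family, Junb in the DSS group against control, was lost in 3 of its alternatives, and the cause of the moves was not tested. In the model group against control, DESeq2 called 1 gene (Ier2), and leaving out 1 rat gave 0 to 1 (Junb without model replicate 3). In the DSS group against model, an FDR of 0.05 and DESeq2 each gave 1 (Fos), and leaving out 1 rat gave 0 throughout. In the DSS group against control, an FDR of 0.05 gave 2 (Fos and Junb), DESeq2 gave 2 (Jun and Junb), all 9 libraries in one fit gave 0, and leaving out 1 rat gave 0 to 2. The replicate block also gave 0 there (Junb at an FDR of 0.0162), but the replicate numbers do not pair the rats: the 9 correlations of same-numbered rats lay between -0.23 and -0.02, and 0 of 9 rats correlated best with a rat of their own number. Signs turned only for small fold changes. Myc in the model group against control ran from 0.064 to 0.67 with 1 rat left out. Atf3 in the model group was -0.0052 with library size alone. With 1 rat left out, the model group against control gave -0.079 to 0.39 for Atf3 and -0.044 to 0.71 for Btg2, the DSS group against model gave -0.34 to 0.53 for Atf3, -0.44 to 0.29 for Btg2 and -0.56 to 0.17 for Myc, and the DSS group against control gave -0.38 to 0.66 for Egr1, -0.20 to 0.68 for Atf3 and -0.19 to 0.54 for Myc. With library size alone, 2 genes in place of 3 did not overlap between the model and control groups, and the gene lost was Fos. Fos had under 10 counts in a DSS library, so the stricter filter gave no value for it in the comparisons with the DSS group.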
